A study of Homo sapiens with 18 samples.

Results

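Human adrenocortical carcinoma cells that received the HSP90 inhibitor STA9090 together with the PI3K inhibitor PIK75 were compared with untreated cells. The members are all genes of the deposited expected-count table that passed a filter on low counts. Of 58870 genes in the table, 15787 passed, and 82.4% of those were protein-coding. The 6 libraries compared (3 per group) belong to a series of 18 libraries in 6 groups. All of them came from NCI-H295R, an established hormone-secreting adrenocortical carcinoma line, which is 1 line and so stands for 1 tumour. The other groups received STA9090, PIK75 or the dual PI3K and mTOR inhibitor BGT226 alone, or STA9090 with BGT226. Exposure lasted 48 h, and the stated inhibitor concentration was 20 nM. The sources used here give neither the dose of each agent within the mixture nor whether the untreated cells received vehicle. The submitters call the 3 libraries of a group biological replicates. The p-values rest on the spread between libraries within groups, estimated over all 18 libraries together.

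HSP90 is the chaperone that holds kinases, steroid receptors and other client proteins in a usable fold, and cells answer its inhibition through the transcription factor HSF1, which raises other chaperones. PI3K relays signals from insulin and growth factor receptors to AKT and mTOR, and so acts on glucose use, lipid synthesis, protein synthesis and the FOXO transcription factors. Adrenocortical cells take up cholesterol, bring it into mitochondria with STAR, and turn it into steroids with a short chain of cytochrome P450 and dehydrogenase enzymes. The comparison asks which genes stand higher or lower when inhibitors of HSP90 and PI3K are given together. The degree of inhibition itself was not measured in these libraries.

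Total counts (in megareads, M) ranged from 10.5 M to 15.5 M in the untreated libraries and from 12.2 M to 13.5 M in the combination libraries. Abundant RNA polymerase III transcripts took 28.6 to 37.6% of the counts of untreated libraries and 35.9 to 40.3% of combination libraries, and mitochondrial mRNAs took 4.71 to 10.7% and 6.43 to 10.5%. Among genes that mark the adrenal cortex, NR5A1, CYP17A1, STAR and CYP11A1 were present in all 6 libraries. INHA and MC2R, also such markers, were at low level in both groups and lower in combination libraries, as given below. Not every marker of the cortex is reported here. Of 21 markers of fibroblasts, endothelium, leukocytes, chromaffin cells, Schwann cells, hepatocytes and keratinocytes, 9 had no count in untreated libraries and 11 had none in combination libraries, among them TH, DBH, LUM, VWF, CDH5, CD3E, MS4A1 and KRT5 in both groups. Their summed counts were 116 to 195 per untreated library and 24 to 39 per combination library, of which COL1A1 alone gave 93 to 159 and 7 to 15. The leukocyte marker CD14 went the other way, with 4 to 10 counts per untreated library and 8 to 16 per combination library. The first principal component (24.4% of the variance of all 18 libraries) put the untreated libraries at -13.2 to -4.07 and the combination libraries at -31.1 to -26.1. On the second (18.9%), the untreated libraries were at 26.4 to 28.0 and the combination libraries at -36.9 to -31.9. The libraries with STA9090 alone were at 26.3 to 29.6 there, and those with PIK75 alone at -8.20 to -4.93.

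Of the 15787 genes tested at an adjusted p under 0.05 (edgeR quasi-likelihood test with Benjamini-Hochberg adjustment), 2886 were higher (18.3%) and 3170 were lower (20.1%). These shares are the background for each gene group described here, but they are not matched for gene type or expression. The share called lower was 23.1% over protein-coding genes. Among those it was 11.1% in the lowest and 36.0% in the highest of 4 equal groups by mean CPM. A list of well-expressed genes would thus have a higher background of lower calls than 20.1%. At 2-fold or more, 548 genes were higher and 507 lower, and the median called change was 0.54 on the log2 scale among higher genes and -0.55 among lower genes. The 3 combination libraries lay wholly above the 3 untreated ones for 2704 of the higher genes, and wholly below for 3051 of the lower genes. Most called genes were thus separate, so separation describes a gene and adds no further support to its call. The share of all tested genes with separate groups is not given here. The median log2 fold change over all tested genes was 0.01. TMM scaling places this middle near 0, so the balance of higher and lower calls is partly set by the scaling and does not measure a change in total RNA. Expression is given as CPM, the count scaled to a common library size by TMM, in replicate order 1 to 3. In bulk RNA such as this, fewer cells of a kind and less RNA per cell cannot be told apart.

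**Figure D1:**
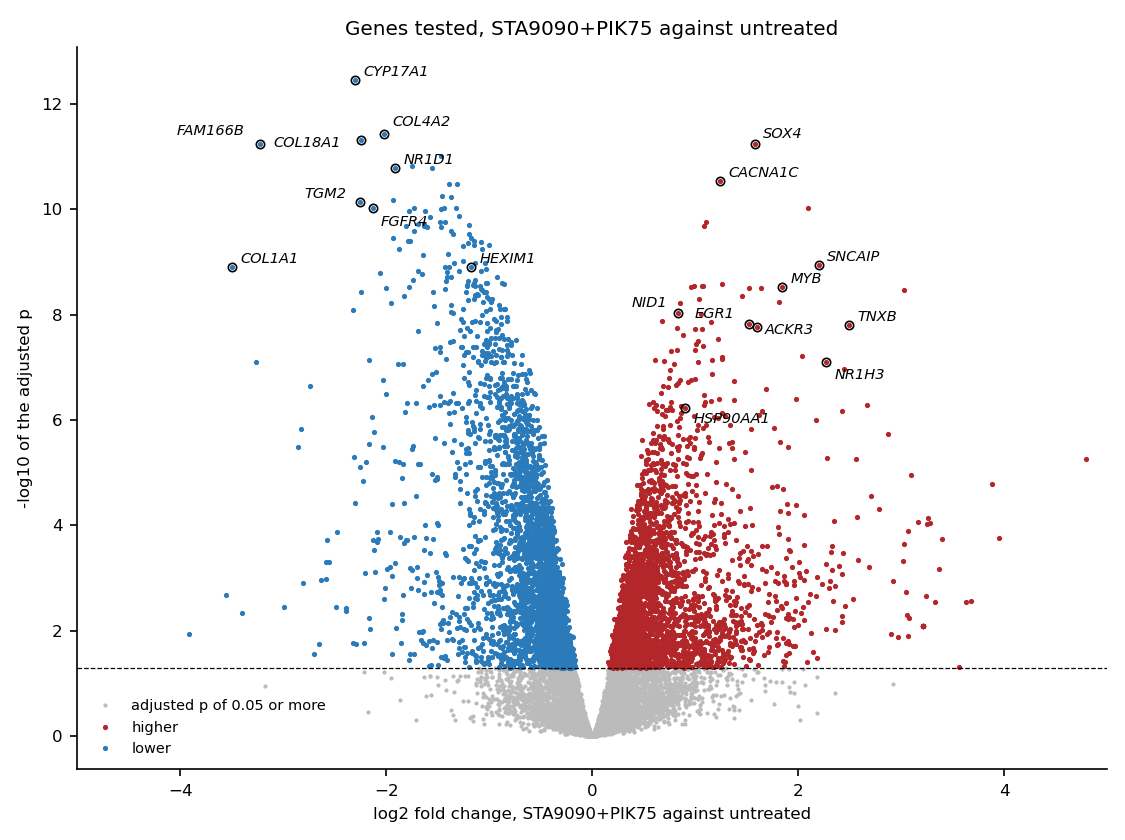
Log2 fold change (horizontal axis) against the -log10 of the adjusted p (vertical axis) for the genes tested in STA9090+PIK75 against untreated cells; red points are higher, blue points lower, grey points did not pass 0.05 (dashed line). Open circles mark genes named in the text, with COL1A1 at -3.50 and CYP17A1 at -2.30 on the left and TNXB at 2.5 on the right; 14 genes with fitted changes beyond 5 in either direction, none of which passed the test, are outside the axis.

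Among protein-coding genes with a mean of at least 5 CPM over the 6 libraries and separate groups, the steepest falls were in collagens, a steroid hydroxylase, a growth factor receptor and several genes with muscle or epithelial roles. COL1A1, the main chain of fibrillar collagen I, was counted at 9.0, 10.8 and 7.87 CPM in untreated cells and 0.625, 0.662 and 1.11 CPM with both agents, a log2 fold change of -3.50 (SE 0.246, adjusted p = 1.25e-09). FAM166B went from 16.1, 19.8 and 16.2 CPM to 1.87, 1.69 and 2.0 CPM, with a log2 fold change of -3.23 (SE 0.148, adjusted p = 5.74e-12). The rule requires separate groups, and for both genes every combination library was far below every untreated one. COL1A1 is also a fibroblast marker. Of the other fibroblast markers, all too low to be tested, COL3A1, PDGFRB and DCN were lower beside it. Summed over 3 libraries, COL3A1 had 17 counts in untreated and 0 in combination libraries, PDGFRB 15 and 1, and DCN 8 and 3. COL1A2 was not lower, with 0 and 1, and LUM had none in either group. The part of fibroblast markers in the falls of collagen and matrix genes was not tested. TGM2, a transglutaminase that crosslinks proteins, stood at 26.7, 28.8 and 23.8 CPM in untreated and 4.82, 5.81 and 5.92 CPM in combination libraries, -2.25 (SE 0.126, adjusted p = 7.26e-11) on the log2 scale. FGFR4, a fibroblast growth factor receptor and a known HSP90 client, stood at 40.1, 49.9 and 43.4 CPM and 8.21, 11.4 and 10.7 CPM, a log2 fold change of -2.13 (SE 0.122, adjusted p = 9.40e-11). Neither gene's groups overlapped, as the rule requires. The serine protease gene TMPRSS9 (-2.33), the muscle F-box gene FBXO40 (-2.24), the fatty acid carrier FABP3 (-2.00) and the actin-binding gene ABLIM1 (-1.95) completed the largest falls outside the collagens, with adjusted p between 3.17e-09 and 8.22e-09.

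By the same rule, the largest rises were in a nuclear receptor, developmental transcription factors and membrane proteins. SOX4, a transcription factor of progenitor cells, was at 44.2, 38.1 and 43.8 CPM in untreated libraries and 123, 129 and 124 CPM with both agents, a log2 fold change of 1.58 (SE 0.0731, adjusted p = 5.91e-12). TSTA3, which makes the sugar donor GDP-fucose, rose from 6.43, 8.25 and 5.84 CPM to 27.7, 30.7 and 30.3 CPM, 2.10 (SE 0.121, adjusted p = 9.40e-11) on the log2 scale. MYB, a transcription factor best known in blood progenitors, rose from 7.49, 5.54 and 5.67 CPM to 25, 21.6 and 20.8 CPM, with a log2 fold change of 1.85 (SE 0.139, adjusted p = 3.05e-09). Each of these had separate groups, as the rule requires. NR1H3, the oxysterol receptor LXR-alpha, was at 2.12, 1.69 and 1.61 CPM and then 9.55, 8.68 and 8.07 CPM (2.27 (SE 0.217, adjusted p = 8.05e-08)). SNCAIP, which encodes the synuclein-binding protein synphilin, reached 12.1, 13.2 and 13.2 CPM from 3.03, 2.43 and 2.96 CPM (2.2 (SE 0.153, adjusted p = 1.15e-09)). Also in the leading 12 were the zinc transporter TMEM163 (1.81), the anchoring collagen COL7A1 (1.62), the chemokine scavenger ACKR3 (1.60), SCART1 (1.54) and EGR1 (1.52). TNXB led these rises, 2.35, 3.18 and 1.61 CPM against 14.7, 15.9 and 10.6 CPM (2.50 (SE 0.212, adjusted p = 1.60e-08)). It shares sequence with a pseudogene copy, so its level is uncertain. AC006064.6 (2.43) overlaps another gene, had no count in untreated replicate 3 and lost its call with DESeq2 (adjusted p = 0.0765), so its value is uncertain as well.

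Steroidogenesis moved almost as a whole. Of 18 genes listed for cholesterol delivery and steroid synthesis, 15 passed the filter. Of these 15, 14 were lower and none higher. Their median log2 fold change was -0.85, where the median of all tested genes was 0.01. Their summed expression fell outside the untreated range, 4134 to 4591 CPM in untreated libraries and 1767 to 1862 CPM with both agents. The uptake receptor SCARB1, described below, gave a large part of this sum in both groups. CYP17A1 (ENSG00000148795.7, chr10:102830531-102837533 on the minus strand of hg38), the hydroxylase and lyase that directs steroids towards cortisol and androgens, had the smallest adjusted p of the named genes. It was counted at 266, 282 and 241 CPM in untreated libraries and at 55.6, 51.1 and 53.4 CPM with both agents, a log2 fold change of -2.30 (SE 0.0851, adjusted p = 3.52e-13). The highest combination library was thus far below the lowest untreated one.

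At the entry of the pathway, SCARB1, the receptor that takes up cholesterol esters from lipoproteins, fell from 1659, 1728 and 1759.7 CPM to 537, 565 and 623 CPM (-1.58 (SE 0.0939, adjusted p = 1.38e-10)). STAR, which carries cholesterol to the inner mitochondrial membrane, fell from 348, 387 and 335 CPM to 158, 165 and 162 CPM (-1.14 (SE 0.0791, adjusted p = 1.07e-09)). CYP11A1, which cuts the cholesterol side chain, stood at 306, 364 and 295 CPM and 129.9, 124 and 141 CPM (-1.29 (SE 0.0918, adjusted p = 1.52e-09)). These first steps showed no overlap between groups. Further along, HSD3B2, the adrenal 3-beta dehydrogenase, had a log2 fold change of -0.85 (SE 0.103, adjusted p = 2.08e-06). The 21-hydroxylase CYP21A2 was lower by -1.35 (SE 0.121, adjusted p = 3.23e-08) on the same scale, but it has a near-identical pseudogene next to it, and reads may be split between the copies. SULT2A1, which sulphates DHEA, went from 29, 28.5 and 32.4 CPM to 10.1, 9.12 and 11.4 CPM, -1.55 (SE 0.119, adjusted p = 3.71e-09). The electron donors were lower too, with FDX1 at -0.85, FDXR at -0.64 and POR at -0.75. CYB5A, the cytochrome b5 that aids the lyase step, was the 1 gene of the list that did not pass, at 0.15 with an adjusted p of 0.339.

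**Figure D2:**
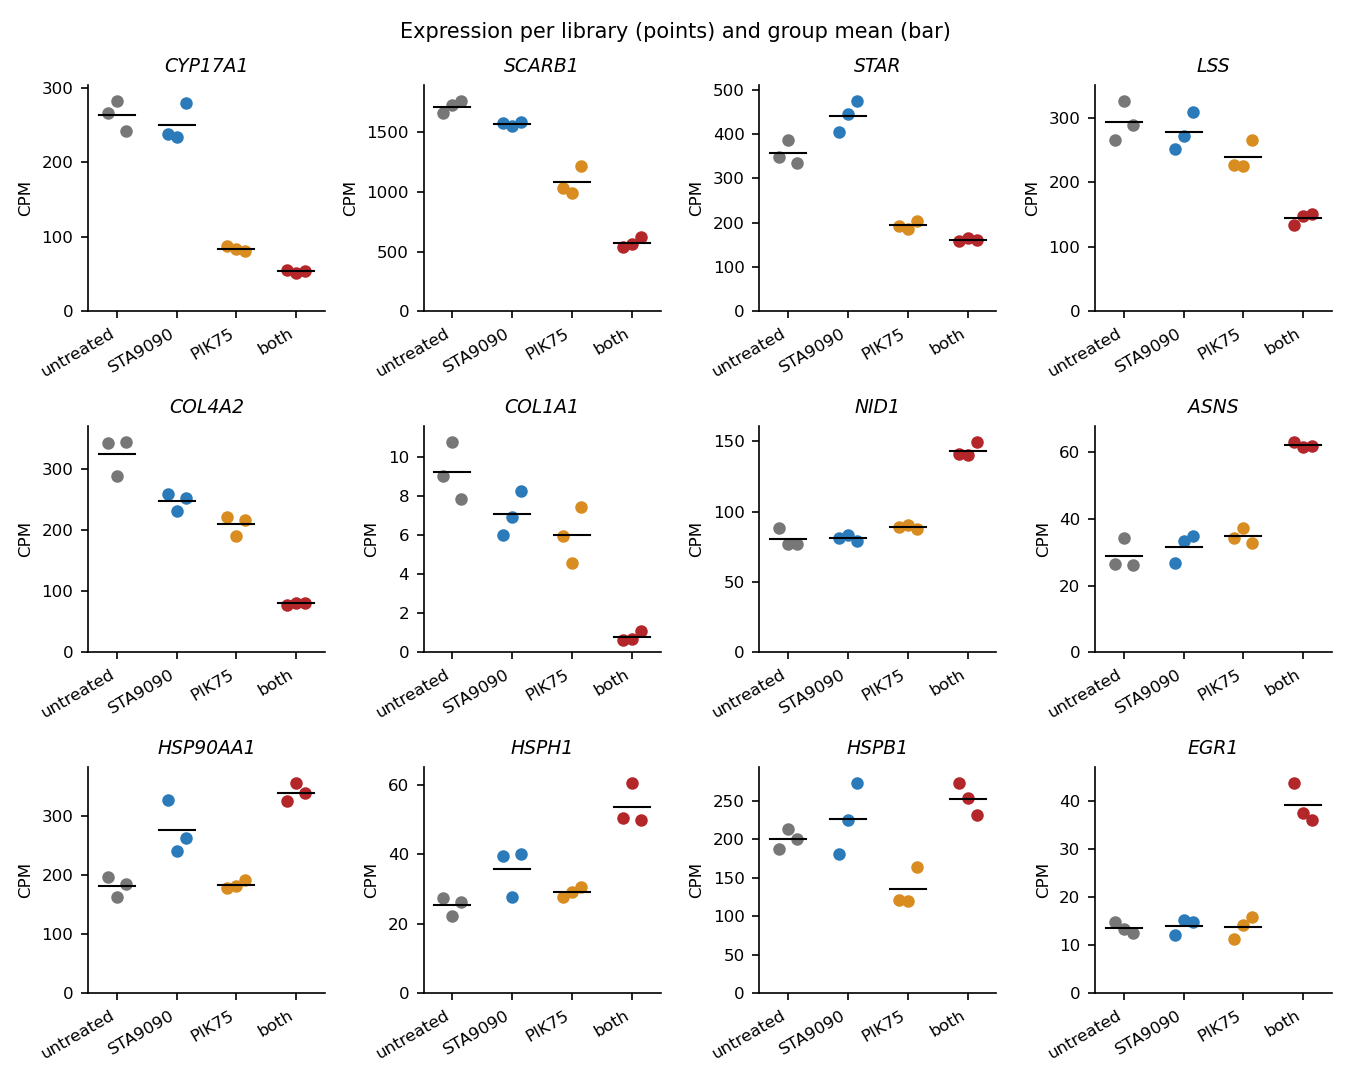
Expression in CPM (vertical axes, linear and starting at 0) of 12 genes in untreated cells, with STA9090, with PIK75 and with both agents; each point is 1 library, 3 per group, and each bar is the group mean. CYP17A1, SCARB1, STAR, LSS, COL4A2 and COL1A1 are lowest in the 3 libraries with both agents, and NID1, ASNS and EGR1 are highest there.

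Among genes of adrenocortical identity and hormone reception, 12 of 19 tested were lower and 2 higher, with a median of -0.46. INHA, the inhibin alpha subunit, was at 4.16, 3.79 and 4.4 CPM in untreated and 0.714, 0.368 and 0.222 CPM in combination libraries, a log2 fold change of -3.26 (SE 0.311, adjusted p = 7.93e-08). MC2R, the ACTH receptor, was at 4.39, 5.07 and 4.74 CPM and 1.52, 1.25 and 1.78 CPM (-1.64 (SE 0.169, adjusted p = 2.31e-07)). The transcription factor GATA6 was at 21.4, 20 and 20.4 CPM and 9.02, 10 and 9.47 CPM (-1.11 (SE 0.0975, adjusted p = 2.52e-08)). In each of these genes the groups were separate by a wide margin. NR5A1, the master regulator SF-1, fell by less, from 528, 659 and 570.5 CPM to 388, 413 and 368 CPM (-0.59 (SE 0.117, adjusted p = 0.000505)). NR0B1 (DAX1), a repressor partner of SF-1, had -0.97, FATE1 -1.69, and the protein kinase A subunits PRKAR1A and PRKACA -0.55 and -0.51. The angiotensin II receptor AGTR1 was lower by -0.33 (SE 0.0709, adjusted p = 0.000977). Against that direction, the nuclear receptors NR4A1 and NR4A2 rose, by 0.57 and 0.96 on the log2 scale. GATA4, with -0.08, and the phosphodiesterase PDE8B, with -0.03, did not pass the test.

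Most genes of lipid synthesis were lower, in both of its branches. In cholesterol synthesis and uptake, 16 of 24 tested genes were lower and none higher (median -0.48), and the list summed to 4255 to 4729 CPM in untreated and 2590 to 2808 CPM in combination libraries. LSS, which closes the sterol rings, was counted at 265, 325 and 289 CPM and then at 134, 148 and 151 CPM, a log2 fold change of -1.03 (SE 0.0962, adjusted p = 6.28e-08). The 2 groups did not overlap. EBP (-1.22), DHCR7 (-0.91), MSMO1 (-0.94) and FDPS (-0.88) were other late or middle steps with comparable falls. The regulator SREBF2 (-0.63, adjusted p = 1.60e-06) was lower as well. SQLE, the squalene epoxidase, was not, at 0.14 with an adjusted p of 0.192.

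In fatty acid synthesis, 8 of 11 tested genes were lower and none higher, and the median was -0.75. FASN, the fatty acid synthase, was counted at 1199, 1436 and 1247 CPM in untreated cells and 602, 590.3 and 546 CPM with both agents (-1.16 (SE 0.136, adjusted p = 1.30e-06)). SCD, which makes the first double bond, was at 1358, 1354 and 1345 CPM and 655, 601 and 714 CPM (-1.04 (SE 0.0934, adjusted p = 3.45e-08)). The regulator SREBF1 fell by about as much, from 85.6, 101 and 105 CPM to 43.7, 49.2 and 49.5 CPM (-1.03 (SE 0.0966, adjusted p = 6.56e-08)). In these 3 genes all combination libraries were below all untreated ones. FADS2 (-1.0), FADS1 (-0.88), ACLY (-0.75), ME1 (-0.65) and ACACA (-0.58) were lower, and the elongase ELOVL5 stood at -0.00 with an adjusted p of 0.982.

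Matrix and adhesion genes held some of the steepest changes in both directions. Of 22 tested, 15 were lower and 2 higher, with a median of -0.70. COL4A2, a chain of basement membrane collagen, was at 344, 289 and 345 CPM in untreated and 78.4, 80.6 and 81.5 CPM in combination libraries (-2.02 (SE 0.0875, adjusted p = 3.82e-12)). Its partner COL4A1, whose gene lies head to head with it on chromosome 13, was at 103, 78.1 and 96.7 CPM and 21.2, 24.6 and 26.5 CPM (-1.94 (SE 0.124, adjusted p = 3.51e-10)). Both genes of the pair were thus lower by nearly the same factor. HSPG2, the proteoglycan perlecan, went from 179, 156 and 200.4 CPM to 52.6, 60.1 and 61 CPM (-1.62 (SE 0.095, adjusted p = 1.11e-10)), and COL18A1 from 37.1, 37.5 and 41.8 CPM to 7.77, 9.35 and 7.33 CPM (-2.25 (SE 0.10, adjusted p = 4.94e-12)). COL5A1 (-1.46), COL6A1 (-1.19), the laminins LAMA5 (-0.99), LAMC1 (-0.92) and LAMB2 (-0.79) and the integrin ITGB1 (-0.62) were lower too. COL11A1, outside the list, fell from 43.7, 35 and 41.8 CPM to 8.66, 9.27 and 10.9 CPM (-2.06 (SE 0.147, adjusted p = 1.66e-09)). Not all of the basement membrane followed. NID1, which links laminin to collagen IV, rose from 88.3, 76.6 and 77 CPM to 141, 140.1 and 149 CPM (0.83 (SE 0.0679, adjusted p = 9.50e-09)). LAMB1, at 231, 192 and 217 CPM and 198, 217 and 229.7 CPM, had a log2 fold change of 0.01 (SE 0.0833, adjusted p = 0.93), and its groups overlapped.

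**Figure D3:**
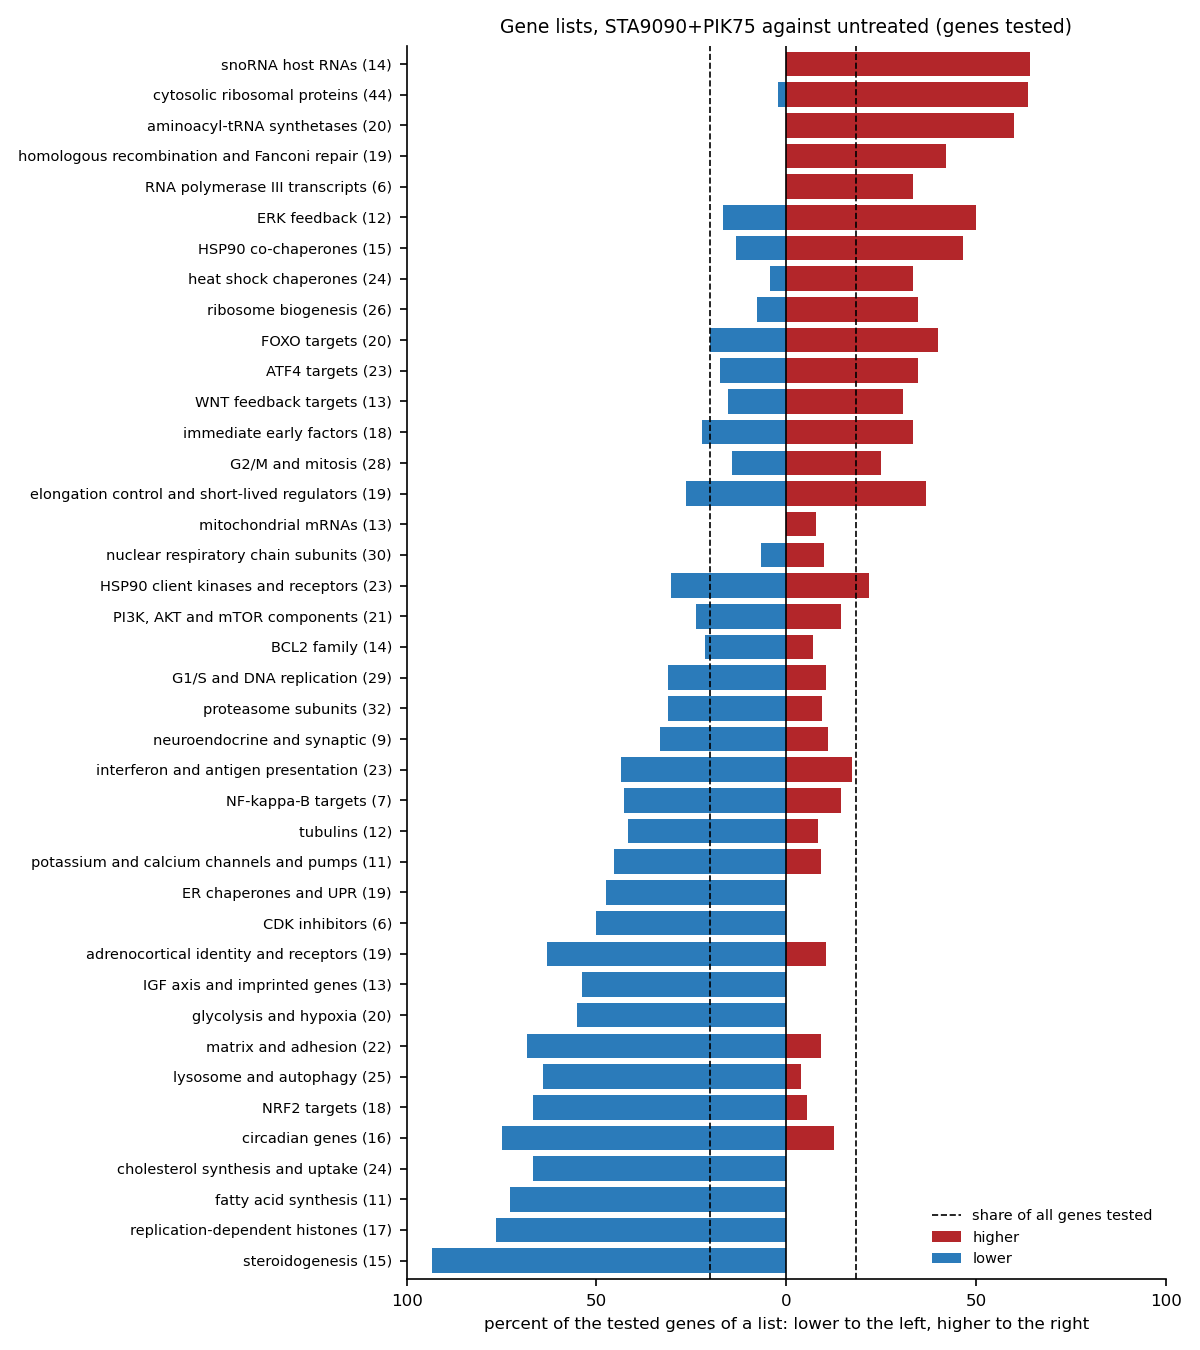
Percent of the tested genes of each list that were higher (red, to the right) or lower (blue, to the left) in STA9090+PIK75 against untreated cells, with the number tested in brackets; dashed lines are the shares over all genes tested, 18.3% and 20.1%. Steroidogenesis, histones, circadian genes, fatty acid synthesis and matrix and adhesion genes reach furthest to the left, and snoRNA host RNAs, ribosomal proteins and aminoacyl-tRNA synthetases furthest to the right.

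HSF1 binds inverted GAA units, and the 8-letter form GAANNTTC (N is any base) was searched on both strands of RefSeq promoters (GRCh38.p14, 250 bases before to 50 after the start). It occurred in 10 of 22 promoters of heat shock chaperone genes (45.5%) and in 532 of 11179 promoters of tested genes (4.76%). The promoters of HSPA1A and HSPA1L overlap on opposite strands, and their match is the same stretch of bases. The 10 promoters thus do not hold 10 separate sites. Stretches of 3 of these promoters are shown on the gene's strand, 5′ to 3′, with each match in capitals. CHORDC1 and HSPA8 rose, and HSPA1A is the classic inducible HSP70 gene. The windows are chr11:90223090-90223119 (minus strand), chr11:123062168-123062197 (minus strand) and chr6:31815293-31815462 (plus strand).
CHORDC1: tgcgcgaccgGAAAATTCgcGAAGGTTCct
HSPA8: ggccccttctgGAAGGTTCtaagatagggt
HSPA1A: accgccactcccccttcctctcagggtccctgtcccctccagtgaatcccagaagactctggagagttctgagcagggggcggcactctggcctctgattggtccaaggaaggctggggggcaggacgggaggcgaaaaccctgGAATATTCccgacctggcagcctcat
A match is a run of letters, not a measured binding site. Of the 10 chaperone genes with a match, 4 were higher and none lower. Of the 12 without one in this window, 4 were higher and none lower.

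Heat shock chaperones rose in part. Of 24 tested heat shock chaperone genes, 8 were higher and 1 lower, with a median of 0.12, and 2 were lower without untreated replicate 3. HSPH1, the HSP110 exchange factor for HSP70, had the largest rise, 27.3, 22.2 and 26.3 CPM in untreated and 50.4, 60.4 and 49.8 CPM in combination libraries (1.09 (SE 0.119, adjusted p = 5.19e-07)). HSP90AA1, the stress-inducible HSP90 itself, was at 197, 164 and 185 CPM and 325, 355 and 338 CPM (0.90 (SE 0.0996, adjusted p = 5.94e-07)). CHORDC1, an HSP90-binding protein, was at 8.4, 9.06 and 11.1 CPM and 17.5, 19.6 and 17.4 CPM (0.94 (SE 0.123, adjusted p = 5.34e-06)). In these 3 genes no library of one group reached the other. HSPA4 (0.70), DNAJA1 (0.62), DNAJB1 (0.36) and the constitutive HSP70 gene HSPA8 rose by less, HSPA8 from 994, 1046 and 926 CPM to 1369.5, 1258 and 1230.0 CPM (0.38 (SE 0.0845, adjusted p = 0.00138)). HSPB1 rose by 0.33 (SE 0.124, adjusted p = 0.0383), a call that was lost without untreated replicate 1 or 3 or combination replicate 1 or 2.

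Several other genes of this response, whether inducible, constitutive or regulatory, did not pass. HSPA1A was at 55.5, 46.3 and 51.8 CPM in untreated and 61.4, 66.9 and 54.1 CPM in combination libraries, which overlap, with a log2 fold change of 0.25 (SE 0.113, adjusted p = 0.0899). It passed without combination replicate 3 (adjusted p = 0.0487). HSPA1A and HSPA1B (0.03, adjusted p = 0.872) are near-identical, and the split of reads between them is uncertain. The constitutive HSP90AB1 had 0.09 (adjusted p = 0.474), BAG3 -0.03 (0.816), HSPD1 -0.21 (0.0699) and HSF1 itself 0.21 (0.172). HSPD1 passed without untreated replicate 3 (adjusted p = 0.0459), with DESeq2 (0.0135) and without the top 50 genes (0.0255). CRYAB, a small heat shock protein at low level, went the other way, from 2.57, 2.1 and 2.54 CPM to 0.268, 0.662 and 0.518 CPM (-2.26 (SE 0.307, adjusted p = 7.96e-06)).

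Among the 15 HSP90 co-chaperone genes, 7 were higher and 2 lower, with a median of 0.21. Without untreated replicate 2, only 4 were higher, and 1 was lower without untreated replicate 3 or combination replicate 2. PPID, the cyclophilin 40 of the HSP90 complex, was at 6.36, 5.75 and 6.09 CPM in untreated and 10.4, 10.5 and 9.25 CPM in combination libraries (0.73 (SE 0.134, adjusted p = 0.000227)). STIP1, which joins HSP70 to HSP90, was at 245, 264 and 217 CPM and 345, 301 and 314 CPM (0.40 (SE 0.087, adjusted p = 0.00103)). Both had separate groups. TRAP1, the mitochondrial HSP90, rose by 0.47 and TTC4 by 0.43, whereas FKBP5, a steroid receptor co-chaperone, was lower by -0.47 (SE 0.125, adjusted p = 0.00531). AHSA1, the activator of the HSP90 ATPase, had 0.14 (adjusted p = 0.246).

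Chaperones of the endoplasmic reticulum had calls in the other direction. Of 19 tested, 9 were lower and none higher, with a median of -0.18. HSPA5, the ER HSP70 known as BiP, was at 329.5, 318 and 299 CPM in untreated and 218, 229.7 and 215 CPM in combination libraries (-0.51 (SE 0.0755, adjusted p = 2.06e-05)). HSP90B1, the ER member of the HSP90 family, was at 127, 104 and 129 CPM and 73.3, 91.5 and 90.1 CPM (-0.50 (SE 0.124, adjusted p = 0.00337)). Neither gene's groups overlapped. PDIA3 (-0.58), EDEM1 (-0.54) and DNAJB9 (-0.50) were lower to a like degree, and XBP1 stood at -0.03 (adjusted p = 0.769).

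Proteasome subunits were mixed. Of 32 tested, 10 were lower and 3 higher, with a median of -0.09. The 10 lower genes became 5 or 6 without untreated replicate 2 or combination replicate 1 or 2. PSMD11 had -0.52 (SE 0.0836, adjusted p = 5.31e-05) and PSMA1 -0.44 (SE 0.10, adjusted p = 0.00165), while PSMB3 rose by 0.42 (SE 0.112, adjusted p = 0.00553) and PSMD13 by 0.42 (SE 0.0815, adjusted p = 0.000427).

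ATF4 is the transcription factor of amino acid shortage, and the letters TGATGNAAN, a form of its composite element, were in 5 of 19 promoters of ATF4 targets (26.3%) and in 182 of 11179 promoters of tested genes (1.63%). The match in the promoter of ASNS, the asparagine synthetase and one of the genes that rose, is shown with its surroundings from chr7:97872458-97872487 (minus strand).
ASNS: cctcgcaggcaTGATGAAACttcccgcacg
Of the 5 ATF4 targets with a match, 2 were higher and 1 lower, and of the 14 without one 3 were higher and 3 lower. Motifs of 5 further lists were searched in the same promoters. GAANNTTC was in 1 of 11 promoters of co-chaperones. The sterol element TCACCCCAC was in 1 of 18 promoters of cholesterol synthesis genes (5.56%, and 0.394% of all). The SF-1 site CAAGGTCA was in 0 of 12 of steroidogenesis (0.823% of all). The FOXO site GTAAACA was in 2 of 17 of FOXO targets (11.8%, and 2.28% of all), and the NRF2 element TGACNNNGC in 3 of 14 of NRF2 targets (21.4%, and 15.1% of all).
Of 23 tested ATF4 targets, 8 were higher and 4 lower, with a median of 0.18. ASNS was counted at 26.4, 34.1 and 26.2 CPM in untreated and 62.9, 61.7 and 61.9 CPM in combination libraries (1.10 (SE 0.119, adjusted p = 4.60e-07)). The cystine carrier SLC7A11 was at 10.3, 11.3 and 12.9 CPM and 21.2, 25 and 21.9 CPM (0.99 (SE 0.125, adjusted p = 3.41e-06)). Both genes had separate groups. The serine enzymes PHGDH (0.63) and PSAT1 (0.57), the transporter chain SLC3A2 (0.62), the stress gene NUPR1 (1.55) and ATF4 itself (0.33) rose. ATF5 was lower, from 81.4, 82.4 and 81 CPM to 41, 30.2 and 35 CPM (-1.21 (SE 0.122, adjusted p = 1.89e-07)), as were CEBPB (-0.63) and VLDLR (-0.48). The stress-death members of the list did not pass, with DDIT3 at 0.21 (adjusted p = 0.212), TRIB3 at 0.33 (0.0847) and CHAC1 at 0.19 (0.344). TRIB3 passed without untreated replicate 2 (adjusted p = 0.00854), without combination replicate 3 (0.0367) and with no filter (0.0313).

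Genes of the translation machinery leaned upward. Of 20 aminoacyl-tRNA synthetases, which charge tRNAs, 12 were higher and none lower (median 0.23), and without untreated replicate 3 the number was 7. MARS was at 127, 156 and 128 CPM in untreated and 224, 248 and 231 CPM in combination libraries (0.77 (SE 0.086, adjusted p = 6.44e-07)), and CARS had 0.77 (SE 0.0965, adjusted p = 2.83e-06). MARS had no overlap between groups. Among 44 tested cytosolic ribosomal protein genes, 28 were higher and 1 lower (median 0.30), and 14 were higher without untreated replicate 3. The lower count was 0 to 2 as single libraries were left out. RPL22 was at 45.8, 36.4 and 35.2 CPM and 69.6, 60 and 61.1 CPM (0.70 (SE 0.101, adjusted p = 1.71e-05)), and RPLP0 at 381, 519.8 and 394 CPM and 646, 659 and 622 CPM (0.57 (SE 0.117, adjusted p = 0.000638)). The many processed pseudogenes of these genes leave the split of their reads uncertain. Of 14 snoRNA host RNAs, which carry small nucleolar RNAs in their introns, 9 were higher and none lower (median 0.47; 1 lower without untreated replicate 1), led by SNHG7 (0.72 (SE 0.118, adjusted p = 6.56e-05)) and ZFAS1 (0.68 (SE 0.107, adjusted p = 4.62e-05)). Ribosome biogenesis factors gave 9 higher and 2 lower of 26, with PES1 at 0.55, NPM1 at 0.47 and RRP12 at -0.68. The 2 lower became 4 without untreated replicate 1 or combination replicate 1. The share of counts taken by RNA polymerase III transcripts overlapped between the groups, at 28.6 to 37.6% in untreated and 35.9 to 40.3% in combination libraries, and its part in these lists was not tested.

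Immediate early and ERK feedback genes, which respond within minutes to hours to growth factor signals, held a distinct set of rises. EGR1 was counted at 14.8, 13.3 and 12.4 CPM in untreated and 43.6, 37.4 and 36 CPM in combination libraries (1.52 (SE 0.129, adjusted p = 1.54e-08)), and FOSB, an AP-1 subunit, at 4.31, 3.92 and 5.16 CPM and 12, 11.6 and 11 CPM (1.38 (SE 0.139, adjusted p = 1.84e-07)). Their groups were separate. Of 18 tested immediate early factors, 6 were higher and 4 lower, the others of the higher being EGR2 (1.69), EGR3 (1.45), FOSL2 (0.62) and KLF10 (0.55). BTG2 (-1.13), JUND (-0.75) and JUN (-0.44) were lower. FOS stood at 0.15 (adjusted p = 0.575). Of 12 ERK feedback genes, 6 were higher and 2 lower, with a median of 0.33. SPRY4, a receptor kinase brake, was at 4.54, 6.15 and 5.58 CPM and 13.7, 12.1 and 12.8 CPM (1.24 (SE 0.132, adjusted p = 3.92e-07)), and PHLDA1 at 43.5, 37.3 and 43.3 CPM and 84.9, 79.3 and 81.8 CPM (0.99 (SE 0.0741, adjusted p = 2.89e-09)). The phosphatases DUSP5 (0.65) and DUSP4 (0.53) rose, while ETV4 (-0.68) and SPRED1 (-0.53) were lower and DUSP6 had -0.15 (adjusted p = 0.179).

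The genes of the PI3K pathway itself moved about as often as the background. Of 21 tested components, 3 were higher and 5 lower (median -0.10), and 3 were lower without untreated replicate 1 or combination replicate 3. PIK3CA, the p110-alpha subunit that PIK75 targets, was at 9.76, 7.84 and 9.22 CPM and 6.43, 7.36 and 8.29 CPM (-0.27 (SE 0.134, adjusted p = 0.118)), with overlapping groups. AKT1 was lower (-0.36 (SE 0.0864, adjusted p = 0.00263)), as was TSC2 (-0.53 (SE 0.0951, adjusted p = 0.000185)), and RICTOR, which defines mTORC2, was higher (0.63 (SE 0.102, adjusted p = 5.55e-05)). FOXO targets, which PI3K signalling normally holds down, gave 8 higher and 4 lower of 20 tested, with a median of 0.18. The 8 became 5 without combination replicate 2, and the 4 became 2 without untreated replicate 3 or combination replicate 2. The receptor ERBB3 rose from 0.757, 0.947 and 0.761 CPM to 2.59, 2.65 and 3.48 CPM (1.81 (SE 0.307, adjusted p = 0.000105)), and TXNIP (0.40) and PDK4 (0.48) rose by less. FOXO4 itself fell from 13, 11.5 and 11.7 CPM to 4.11, 4.49 and 5.25 CPM (-1.38 (SE 0.16, adjusted p = 1.17e-06)), and the sestrin SESN3 from 22.5, 17.9 and 21.8 CPM to 7.14, 10.2 and 9.25 CPM (-1.21 (SE 0.145, adjusted p = 1.76e-06)). Among 23 genes whose proteins are HSP90 clients, 5 were higher and 7 lower (median -0.08). The 5 became 3 without combination replicate 2. FGFR1 (-0.83) and MET (-0.63) were lower with FGFR4, and EGFR (0.53) and BRAF (0.44) were higher.

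Glucose use, redox defence and lysosomes shared a downward lean. In glycolysis and hypoxia, 11 of 20 tested genes were lower and none higher (median -0.33), with 1 higher without untreated replicate 2. LDHA, the lactate dehydrogenase, went from 186, 214 and 165 CPM to 74.9, 63.4 and 71.3 CPM (-1.43 (SE 0.10, adjusted p = 1.24e-09)), and the glucose carrier SLC2A1 from 133, 146 and 127 CPM to 77.7, 79 and 78.5 CPM (-0.79 (SE 0.0838, adjusted p = 3.54e-07)). Both had separate groups. ALDOA (-0.69), PFKFB3 (-0.61) and HK2 (-0.53) were lower, and GAPDH (-0.20), PGK1 (0.09) and VEGFA (-0.09) did not pass. Of 18 NRF2 targets, which guard against oxidants, 12 were lower and 1 higher (median -0.41), the higher call being kept only without combination replicate 3 when single libraries were left out. OSGIN1 was at 30.6, 31.1 and 30.4 CPM and 13.3, 12.9 and 13.3 CPM (-1.22 (SE 0.113, adjusted p = 5.16e-08)), and the glutathione reductase GSR had -1.06 (SE 0.084, adjusted p = 5.77e-09). NQO1 (-0.59) followed. Of 25 lysosome and autophagy genes, 16 were lower and 1 higher (median -0.33; 2 higher without untreated replicate 2), with the protease CTSD at -0.91 (SE 0.106, adjusted p = 1.11e-06), the regulator TFEB at -0.92 and the ion channel MCOLN1 as the 1 rise (0.44).

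Proliferation genes did not move as a block. Of 28 tested genes of G2/M and mitosis, 7 were higher and 4 lower (median 0.10). CDC25C, the phosphatase that starts mitosis, was at 8.32, 10.5 and 7.19 CPM and 13.5, 15.1 and 18.1 CPM (0.84 (SE 0.13, adjusted p = 3.82e-05)), and the checkpoint kinase TTK at 15.6, 19.1 and 16.5 CPM and 25.2, 30.6 and 26.1 CPM (0.68 (SE 0.118, adjusted p = 0.000139)). MKI67, the usual proliferation marker, was lower (-0.42 (SE 0.111, adjusted p = 0.00511)), as was PLK1 (-0.44 (SE 0.0702, adjusted p = 5.55e-05)). CCNB1 (-0.05, adjusted p = 0.692) and TOP2A (0.06, adjusted p = 0.585) did not pass. Of 29 genes of G1/S and DNA replication, 3 were higher and 9 lower (median -0.12), and only 1 was higher without untreated replicate 1 or 3 or combination replicate 3. RRM2, a subunit of ribonucleotide reductase, was at 154, 158 and 150.1 CPM and 66.7, 57.5 and 73.8 CPM (-1.22 (SE 0.0934, adjusted p = 3.66e-09)), and CCND3 had -0.76 (SE 0.092, adjusted p = 1.85e-06). The CDK inhibitors did not rise. CDKN1A (p21) went from 85.5, 104 and 101 CPM to 44.8, 44.6 and 48.4 CPM (-1.07 (SE 0.0814, adjusted p = 3.22e-09)), CDKN2C and CDKN2D were lower by -0.60 and -0.91, and CDKN1B (p27) had -0.06 (adjusted p = 0.498).

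Of 17 replication-dependent histone genes, 13 were lower and none higher (median -0.62). HIST1H2BD had -1.20 (SE 0.155, adjusted p = 4.29e-06), and HIST2H2AC -0.95 (SE 0.21, adjusted p = 0.00125). These genes are near copies of each other, so their single values are uncertain. Repair genes of homologous recombination and the Fanconi pathway leaned the other way, with 8 of 19 higher and none lower (median 0.17), or 1 lower without untreated replicate 2. FANCB was at 4.54, 5.14 and 5.07 CPM and 8.48, 9.35 and 8.81 CPM (0.85 (SE 0.13, adjusted p = 3.27e-05)), FANCD2 had 0.68 (SE 0.0743, adjusted p = 5.44e-07) and BRCA1 0.47 (SE 0.125, adjusted p = 0.00531), while BRCA2 (-0.08) did not pass. In the BCL2 family, 1 of 14 genes was higher and 3 lower, and the 3 became 1 without untreated replicate 3. The pro-death gene BIK rose from 1.21, 1.56 and 1.35 CPM to 3.21, 3.24 and 2.59 CPM (1.12 (SE 0.254, adjusted p = 0.00155)), and the pro-survival MCL1 fell from 151, 136 and 146 CPM to 115, 109.8 and 119 CPM (-0.33 (SE 0.0755, adjusted p = 0.00177)).

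Growth and patterning signals of adrenocortical cancer were measured next. Of 13 genes of the IGF axis and imprinted growth control, 7 were lower and none higher (median -0.37). IGF2, the growth factor that many of these tumours overproduce, was at 5405, 4609.5 and 4853 CPM in untreated and 3548, 3072 and 3296 CPM in combination libraries (-0.58 (SE 0.0906, adjusted p = 3.79e-05)). H19, the imprinted noncoding RNA beside it on chromosome 11, was at 5.52, 6.22 and 5.33 CPM and 2.41, 1.32 and 1.7 CPM (-1.67 (SE 0.225, adjusted p = 6.90e-06)). The imprinted genes PEG3 (-1.22 (SE 0.104, adjusted p = 1.81e-08)) and MEG3 (-0.90 (SE 0.153, adjusted p = 0.000106)) were lower as well. No overlap was seen in these 4 genes. CTNNB1, the beta-catenin gene, which carries an activating mutation in this line, was at 543, 609 and 551 CPM and 434, 460.4 and 459 CPM (-0.33 (SE 0.0801, adjusted p = 0.00272)). Its feedback targets split, with 4 of 13 genes of the list higher and 2 lower (1 without untreated replicate 3 or combination replicate 3), AXIN2 at 0.12 (adjusted p = 0.167), APCDD1 at 0.70 (SE 0.0667, adjusted p = 7.71e-08) and ZNRF3 at 0.37 (SE 0.0645, adjusted p = 0.00015). CCND1 rose from a trace, 0.0757, 0.203 and 0.169 CPM to 0.893, 0.662 and 0.888 CPM (2.36 (SE 0.527, adjusted p = 0.0014)).

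Most clock genes fell. Of 16 tested, 12 were lower and 2 higher (median -0.60), and 1 was higher without untreated replicate 2. NR1D1, the repressor REV-ERB-alpha, was at 41.6, 39.6 and 41.4 CPM and 12.2, 9.71 and 10.7 CPM (-1.91 (SE 0.0964, adjusted p = 1.64e-11)). The clock-output factors DBP (-1.39 (SE 0.0976, adjusted p = 1.25e-09)) and TEF (-1.88 (SE 0.125, adjusted p = 5.72e-10)) were lower with it. NFIL3, which competes with them for the same DNA element, rose from 9.84, 11.1 and 8.71 CPM to 22.1, 24.5 and 22.6 CPM (1.22 (SE 0.108, adjusted p = 2.92e-08)). CLOCK itself had 0.06 (adjusted p = 0.633). HEXIM1, the inhibitor of the transcription elongation kinase CDK9, fell from 59.8, 56.2 and 57.5 CPM to 27.9, 25.3 and 23.7 CPM (-1.18 (SE 0.0824, adjusted p = 1.24e-09)), while CDK9 (0.43 (SE 0.0679, adjusted p = 5.09e-05)), CCNT1 (0.40 (SE 0.0818, adjusted p = 0.000657)) and CDK12 (0.57 (SE 0.077, adjusted p = 7.03e-06)) rose. Among 19 genes of elongation control and short-lived regulators, 7 were higher and 5 lower. In the interferon and antigen presentation list, 10 of 23 were lower and 4 higher (median -0.32). The class I genes HLA-B (-0.94 (SE 0.114, adjusted p = 1.92e-06)) and HLA-C (-0.86) and their light chain B2M (-0.50) were lower, and IFIT3 (0.67) and IRF1 (0.41) were higher. HLA genes are alike in sequence and vary between people, so a reference-based count of 1 of them is uncertain.

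How the mixture stood against each agent alone was tested in the same model. These comparisons share libraries, so the values are given side by side. Against PIK75 alone, 1784 genes were higher (11.3%) and 2209 lower (14.0%). Against STA9090 alone, 2787 were higher (17.7%) and 3127 lower (19.8%). CYP17A1 had log2 fold changes of -0.07 with STA9090, -1.65 with PIK75 and -2.30 with both, each against untreated cells. For COL4A2 the same 3 values were -0.39, -0.64 and -2.02, and for FASN -0.26, -0.22 and -1.16. The median over the steroidogenesis list was 0.01 with STA9090, -0.46 with PIK75 and -0.85 with both. For matrix and adhesion genes the medians were -0.11, -0.15 and -0.70.

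**Figure D4:**
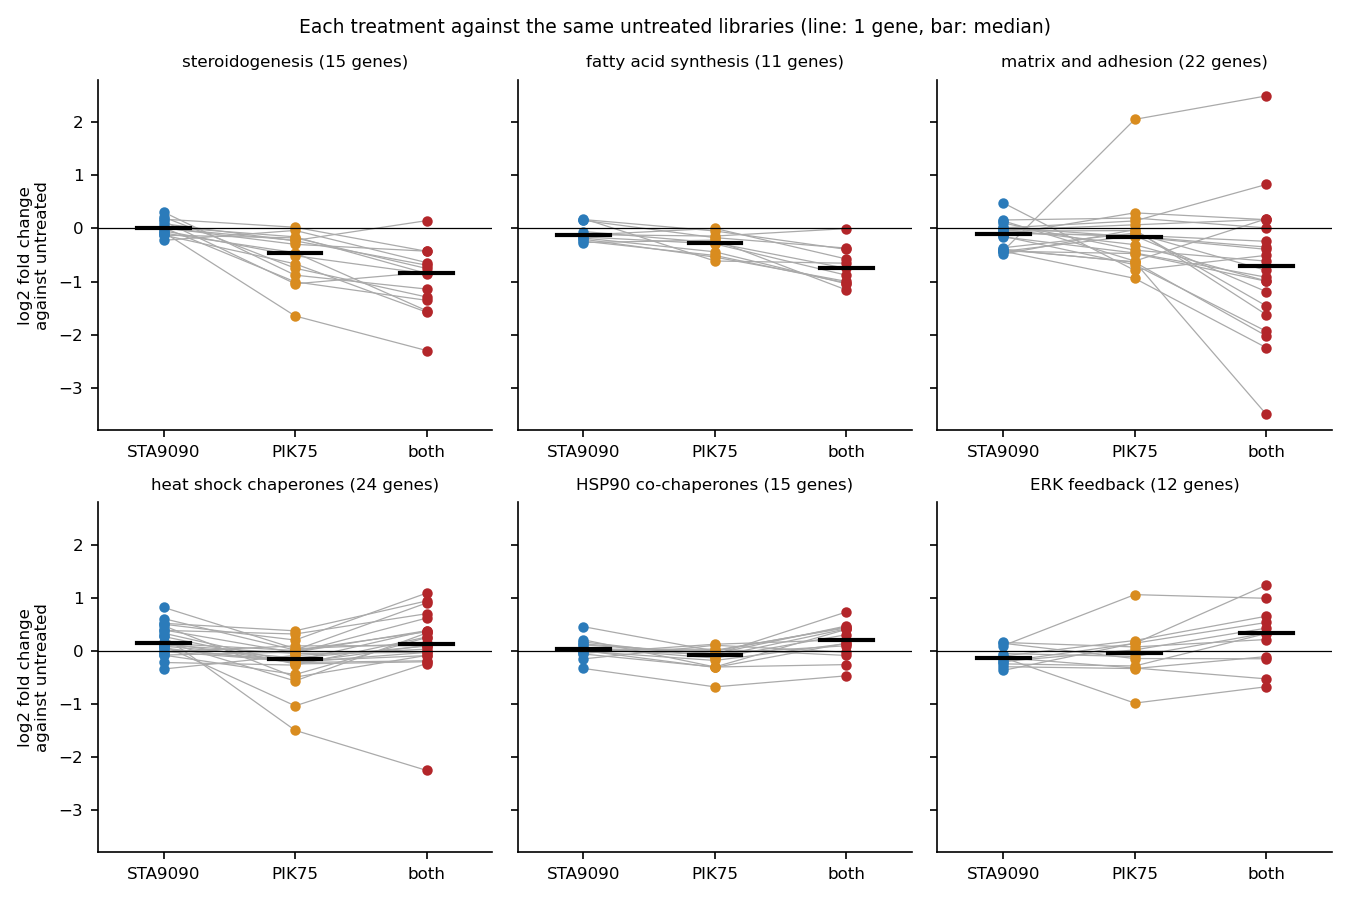
Log2 fold change against the same 3 untreated libraries (vertical axes) of STA9090, PIK75 and both agents for 6 gene lists; each grey line joins 1 gene, and the black bar is the median. The bar for fatty acid synthesis is at -0.12 with STA9090, at -0.27 with PIK75 and at -0.75 with both. That for HSP90 co-chaperones goes from 0.02 and -0.07 to 0.21, and that for heat shock chaperones from 0.14 and -0.16 to 0.12.

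Set against PIK75, about as many chaperone genes rose as did not pass. Of 24 heat shock chaperones 12 were higher and none lower (median 0.37), and of 15 co-chaperones 9 were higher and none lower (median 0.42). Against STA9090, 9 heat shock chaperones were higher and 5 lower (median 0.14). In that comparison 3 co-chaperones were higher and 1 lower (median 0.14). HSPB1 was at 121, 119 and 164 CPM with PIK75 and 272, 254 and 232 CPM with both (0.90 (SE 0.125, adjusted p = 2.23e-05)). HSPA8 was at 849, 895 and 867 CPM and 1369.5, 1258 and 1230.0 CPM (0.56 (SE 0.0846, adjusted p = 5.53e-05)). HSPA1A was at 35.4, 35.6 and 41.7 CPM and 61.4, 66.9 and 54.1 CPM (0.70 (SE 0.116, adjusted p = 0.000166)). All 3 genes had separate groups. With PIK75 alone, against untreated cells, HSPB1 had -0.57 (SE 0.125, adjusted p = 0.00295) and HSPA1A -0.45 (SE 0.116, adjusted p = 0.0103). Proteasome subunits gave 12 higher and none lower of 32 against PIK75, and 1 higher and 14 lower against STA9090.

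By size, among protein-coding genes with a mean of at least 5 CPM, the leading rises against PIK75 were EGR1 (1.51 (SE 0.13, adjusted p = 9.24e-08)), FOSB (1.43 (SE 0.141, adjusted p = 4.50e-07)), CT45A1 (1.3 (SE 0.275, adjusted p = 0.00152)), a cancer-testis gene with near-identical copies, and FMC1-LUC7L2, a readthrough of neighbouring genes whose value is uncertain. The leading falls were ABLIM1 (-1.63 (SE 0.158, adjusted p = 4.20e-07)), ANKFN1 (-1.62 (SE 0.14, adjusted p = 9.62e-08)), HSPG2 (-1.60 (SE 0.095, adjusted p = 1.66e-09)) and the adhesion receptor ADGRB1 (-1.60 (SE 0.158, adjusted p = 4.47e-07)). Steroidogenesis had 12 of 15 genes lower and 1 higher against PIK75, and 14 lower and none higher against STA9090. Against STA9090, the leading rises were TNXB (2.92 (SE 0.223, adjusted p = 5.20e-09)), AC006064.6, MYB (1.95 (SE 0.14, adjusted p = 2.72e-09)) and SRGAP3 (1.91 (SE 0.225, adjusted p = 1.71e-06)), and the leading falls FAM166B (-3.60 (SE 0.144, adjusted p = 8.34e-13)), TMPRSS9 (-2.50 (SE 0.186, adjusted p = 3.72e-09)), TGM2 (-2.23 (SE 0.127, adjusted p = 1.13e-10)) and CYP17A1 (-2.23 (SE 0.0849, adjusted p = 6.30e-13)).

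Whether the effect of both agents departs from the sum of the single effects on the log2 scale was asked with an interaction term. It was positive for 559 genes (3.54%) and negative for 904 (5.73%). Fitted on the 12 libraries of the 4 groups alone, the counts were 294 and 515, and without combination replicate 1 the positive count was 344. EGR1 had an interaction of 1.47 (SE 0.191, adjusted p = 0.00013). Its libraries were at 14.8, 13.3 and 12.4 CPM untreated, 12, 15.3 and 14.8 CPM with STA9090, 11.3, 14.1 and 15.7 CPM with PIK75 and 43.6, 37.4 and 36 CPM with both, so that only the last group stands apart. COL1A1 had -2.47 (SE 0.323, adjusted p = 0.00013), with 6.03, 6.91 and 8.26 CPM under STA9090 and 5.97, 4.57 and 7.44 CPM under PIK75. SPRY4 (1.3 (SE 0.20, adjusted p = 0.000451)) and FOSB (1.22 (SE 0.209, adjusted p = 0.000982)) were further positive terms, and FAM166B (-2.04 (SE 0.201, adjusted p = 5.52e-06)) and MUCL1 (-1.51 (SE 0.238, adjusted p = 0.000513)) further negative ones with a measured size.

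By list, ERK feedback had 6 positive terms and none negative of 12, and heat shock chaperones 5 and none of 24, among them HSPB1 (0.73 (SE 0.176, adjusted p = 0.0125)) and HSPA8 (0.54 (SE 0.119, adjusted p = 0.00713)). Co-chaperones had 4 positive and none negative of 15. Steroidogenesis had no positive and 8 negative terms of 15, with SCARB1 at -0.79 (SE 0.13, adjusted p = 0.00081), HSD3B2 at -0.72 (SE 0.144, adjusted p = 0.00325) and CYP17A1 at -0.58 (SE 0.115, adjusted p = 0.00316). Matrix and adhesion had 1 and 8 of 22, with COL4A2 at -1.0 (SE 0.119, adjusted p = 5.35e-05) and HSPG2 at -1.12 (SE 0.131, adjusted p = 4.06e-05). Cholesterol synthesis had none and 7 of 24, with LSS at -0.65 (SE 0.135, adjusted p = 0.00433), and fatty acid synthesis none and 5 of 11. Mitotic genes had none and 7 of 28. No term was called for the 44 ribosomal proteins, the 25 lysosome genes or the 17 histone genes.

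The called genes also differed by class. Among 13009 protein-coding genes, 18.6% were higher and 23.1% lower. Among 1719 long noncoding genes the shares were 17.4% and 6.52%, and among 601 pseudogenes 16.8% and 5.66%. Within protein-coding genes the share called lower went up with expression, from 11.1% in the lowest of 4 equal groups by mean CPM over all 18 libraries (up to 5.25 CPM) to 36.0% in the highest (from 38.7 CPM). The share called higher was 17.2% and 16.8% in the same groups. Low counts give a test less precision, and how far this sets the shares was not tested.

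**Figure D5:**
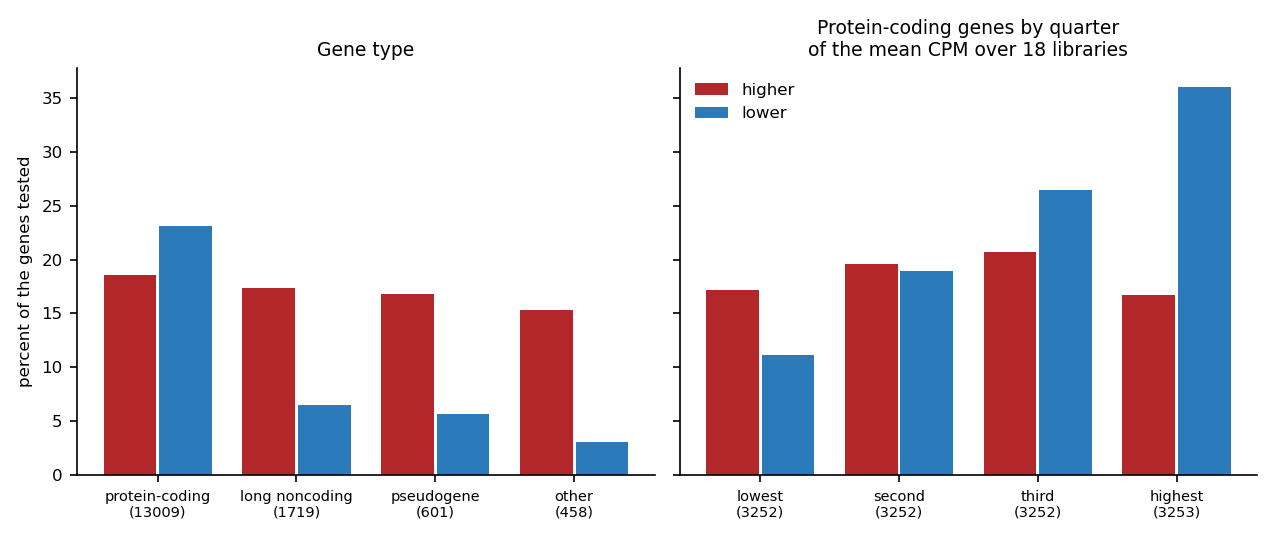
Percent of tested genes called higher (red) or lower (blue) in STA9090+PIK75 against untreated cells, by gene type (left) and, for protein-coding genes, by 4 equal groups of the mean CPM over all 18 libraries (right), with the number of genes in brackets. The share called lower is 11.1% in the lowest and 36.0% in the highest group, while the share called higher stays between 16.8% and 20.8%.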

How the data were processed

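RNA from 18 NCI-H295R cultures was sequenced as stranded, ribosome-depleted total RNA, paired-end, per the labels. The deposited values are expected counts per gene, which the submitters' processing notes trace to bcl2fastq 2.20, cutadapt 1.18, STAR 2.7.0f and RSEM 1.3.1 on hg38; their annotation and strand setting are not recorded there. Expected counts were rounded to whole numbers, genes were filtered (minimum count 10, minimum total 15), scaled by TMM and tested in edgeR 4.0.16 (R 4.3.3) with a quasi-likelihood fit of all 18 libraries, a mean per group and no covariate, a prior count of 0.125 and Benjamini-Hochberg adjustment over 15787 genes at 0.05. The interaction is both agents, less each alone, plus untreated. IDs were placed with GENCODE 29 and promoters came from RefSeq (GRCh38.p14).

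Tested on simulated counts of the combination against untreated cells (15174 genes in that step), 40, 49, 49 and 50 of 50 changed genes were recovered at 1.5, 2, 3 and 4-fold. The changed genes were drawn from those with an expected count above 50, so these rates do not cover genes with fewer counts. Named genes are the 12 largest called rises and falls among protein-coding genes with 5 CPM or more and separate groups, 4 in each other comparison, up to 5 members of each list by adjusted p, and a fixed set; other list members were picked after their values were seen, and some genes are not reported here. The groups, 41 gene lists and motifs were chosen with earlier results of these data known, and lists are described without a test. Alternatives were RLE factors, no filter, a stricter filter (1 CPM in 3 libraries), DESeq2 1.42.0, a replicate block, the top 50 genes left out, the compared groups alone, and each library left out.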

Additional observations from a re-analysis of the deposited data

Results flagged for a closer look

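The interaction term tests whether the effect of STA9090 differs between cells with and without PIK75 on the log2 scale, and it was called for 559 genes in the positive and 904 in the negative direction (edgeR quasi-likelihood test). Among genes of the naming rule, EGR1 (1.47 (SE 0.191, adjusted p = 0.00013)), SPRY4 (1.3 (SE 0.20, adjusted p = 0.000451)) and FOSB (1.22 (SE 0.209, adjusted p = 0.000982)) were above the sum of the single effects. COL1A1 (-2.47 (SE 0.323, adjusted p = 0.00013)), FAM166B (-2.04 (SE 0.201, adjusted p = 5.52e-06)) and MUCL1 (-1.51 (SE 0.238, adjusted p = 0.000513)) were below it. MUCL1, a small secreted mucin-like gene, was at 5.6, 6.56 and 5.67 CPM in untreated libraries, 6.47, 7.07 and 7.2 CPM with STA9090, 7.59, 7.56 and 10.8 CPM with PIK75 and 3.12, 3.46 and 3.85 CPM with both. CU639417.1, a gene known by a clone name, has a fitted term of -20.32; its expected count rounded to 0 in all 3 untreated and all 3 combination libraries, in STA9090 replicate 1 and in PIK75 replicate 3, so this value is not a measured size, and its call was lost without PIK75 replicate 2 (adjusted p = 0.0568).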

How the results depend on the processing

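Gene counts of the combination against untreated cells stayed within 1.5 times under every alternative run. They were 2492 higher and 2951 lower with DESeq2, 2891 and 3163 with RLE factors, 2725 and 3264 with no filter, 2898 and 3119 with the stricter filter, 2766 and 3266 without the top 50 genes, and 2729 and 2972 with the compared groups alone. Leaving out single libraries gave 2253 to 2577 higher and 2705 to 2867 lower. With the replicate block they were 2814 and 3107; same-numbered untreated and combination libraries deviated together with correlations of 0.098, 0.043 and 0.039, so the numbers are not taken to pair samples. The interaction was less stable: with the compared groups alone it gave 294 positive and 515 negative terms, and leaving out single libraries gave 344 to 571 and 605 to 894, with 344 without combination replicate 1. The cause was not tested. Of 738 pairs of a list count and an alternative, 78 moved by more than 1.5 times. Of 253 gene values in the text, 3 lost their call under some alternative: HSPB1, AC006064.6 and the interaction of CU639417.1. The calls gained were those of HSPA1A, HSPD1 and TRIB3. Changes of sign were limited, among these gene values and alternatives, to 12 genes that did not pass in the fit reported. Their log2 values with single libraries left out ranged from -0.081 to 0.013 for BAG3, -0.17 to 0.092 for BRCA2, -0.12 to 0.071 for CCNB1, -0.26 to 0.36 for CHGA, -0.0014 to 0.086 for CLOCK, -0.034 to 0.049 for ELOVL5, -0.15 to 0.018 for GATA4, -0.047 to 0.12 for HSPA1B, -0.061 to 0.069 for LAMB1, -0.27 to 0.62 for PDE8B, -0.0011 to 0.20 for PGK1 and -0.095 to 0.030 for XBP1. Sign also changed for CHGA with the stricter filter (0.0031), DESeq2 (0.0051) and the compared groups alone (0.0018), for ELOVL5 with the stricter filter (0.0030) and the compared groups alone (0.0037), for LAMB1 with no filter (-0.0089) and for PDE8B with the replicate block (0.021).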

Other observations

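Ion transport, cytoskeletal and secretory genes gave further changes between untreated and combination libraries. Of 11 potassium and calcium channels and pumps of aldosterone control, 5 were lower and 1 higher. CACNA1C, an L-type calcium channel, rose from 48, 49 and 47.4 CPM to 113, 117 and 112 CPM (1.24 (SE 0.065, adjusted p = 2.96e-11)), and the calcium pump ATP2B3 fell from 3.71, 3.92 and 3.98 CPM to 0.625, 0.957 and 1.18 CPM (-2.04 (SE 0.258, adjusted p = 3.30e-06)), with separate groups in both. KCNJ5, the potassium channel mutated in many aldosterone-producing adenomas, was lower (-0.42 (SE 0.0729, adjusted p = 0.000133)). Of 12 tubulins, 5 were lower and 1 higher, and the 5 became 2 without untreated replicate 2 and 3 without combination replicate 2; TUBB4A fell from 499.6, 457 and 425 CPM to 186, 169 and 179 CPM (-1.37 (SE 0.0993, adjusted p = 1.94e-09)). Of 9 neuroendocrine and synaptic genes, 3 were lower and 1 higher, with the vesicle protein SYP at -1.17 (SE 0.135, adjusted p = 1.09e-06) and the granin SCG3, at 0.151, 0.338 and 0.338 CPM and then 1.61, 1.32 and 1.41 CPM, at 2.35 (SE 0.39, adjusted p = 8.35e-05). CHGA had -0.00 (adjusted p = 0.997). Of 7 tested NF-kappa-B targets, 3 were lower and 1 higher, with TNFAIP3 at -0.62 (SE 0.0603, adjusted p = 1.11e-07) and NFKB2 at 0.90 (SE 0.136, adjusted p = 2.76e-05). Of 30 nuclear respiratory chain subunits, 3 were higher and 2 lower, and the 3 ranged from 0 to 5 as single libraries were left out. Of 13 mitochondrial mRNAs, 1 was higher and none lower, and 9 were higher without untreated replicate 1. Both of the RNA polymerase III transcripts called higher, of 6 tested, lost their call in DESeq2 and without untreated replicate 1 or 3 or combination replicate 1 or 2.

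Gene families read from the start of the symbol were looked at after the values had been seen, so they are descriptions. Of 463 protein-coding zinc finger genes with ZNF symbols, 177 were higher (38.2%) and 20 lower (4.32%), beside 18.3% and 20.1% of all genes tested, with a median of 0.31. Many of them stand in clusters on chromosome 19, where 47.1% of 227 ZNF genes were higher and 1.76% lower. The 753 other protein-coding genes of that chromosome had 19.8% higher and 22.2% lower, and the 236 ZNF genes elsewhere 29.7% and 6.78%. ZNF genes are alike in sequence, and what this does to their counts was not tested. Of 78 mitochondrial ribosomal protein genes, 29 were higher and 7 lower. Solute carriers leaned the other way, with 34 of 229 higher and 75 lower. Of 20 collagens, 13 were lower and 3 higher.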
